A study of Mus musculus with 26 samples.

Results

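The E14 regions of the repressive histone mark H3K27me3 were compared between K27-K4 reChIP, in which chromatin recovered with H3K27me3 antibody was immunoprecipitated a second time with H3K4me3 antibody, and the in-line total H3K27me3 ChIP. The table of E14 H3K27me3 regions lists 21527 regions that cover 27.38 Mb, of 338442 regions in the 12 deposited tables, and every one of its regions was taken. E14 is a wild-type, non-clonal mouse embryonic stem cell (ESC) line, here grown on gelatin in serum and LIF. Fixed cells were digested with MNase to mononucleosomes. The in-line total is 10% of the eluate of the first immunoprecipitation, set aside before the second, so K27-K4 and total H3K27me3 of a replicate come from the same cells and the same first immunoprecipitation. There were 2 biological replicates of each, 4 libraries in all, and each library was centred on its median over the regions. The same cells also gave total H3K4me3 and the reverse reChIP (K4-K27) in both replicates and a single IgG–IgG reChIP. The paper reports noisier signal in its in-line totals than in the reChIPs, likely from their low cell input, and few peaks called with them. K27-K4 and total H3K27me3 of the wild-type (WT) clones 57 and 58, with 1 library of each per clone, were used beside the E14 libraries. The H3K4me3 antibody has been reported to bind H3K4me2 as well, so a second step labelled H3K4me3 may also have recovered H3K4me2.

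H3K27me3 is written by Polycomb repressive complex 2 and covers silent developmental genes, whereas H3K4me3 is written by MLL and SET1 complexes at CpG-rich promoters. In ESCs many promoters of developmental regulators carry both marks, a state called bivalent chromatin. The second immunoprecipitation is meant to retain nucleosomes that carry both marks, although signal of the first step can carry through it.

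The difference between K27-K4 and total H3K27me3 spanned a wide range, from CpG-dense promoters where the reChIP level stood far above that of the in-line total to sites away from start sites where hardly any reChIP read was left. The 300 bases about the midpoints of 4 kept and 3 depleted regions among those with the largest differences are shown for their CpG content. They are given on the forward strand of the GRCm38.p6 (mm10) genome of RefSeq, with the 2 letters of each CpG in capitals. In the kept group there were 18 to 24 CpGs in 300 bases.
D030025P21Rik, promoter, chr12:84875851-84876150: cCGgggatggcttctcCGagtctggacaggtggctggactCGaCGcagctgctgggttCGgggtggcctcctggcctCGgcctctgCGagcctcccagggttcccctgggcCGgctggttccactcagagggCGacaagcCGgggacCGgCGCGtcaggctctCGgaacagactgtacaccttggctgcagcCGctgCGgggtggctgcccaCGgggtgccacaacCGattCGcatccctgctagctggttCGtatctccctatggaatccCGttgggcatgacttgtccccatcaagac
Adamts1, promoter, chr16:85802176-85802475: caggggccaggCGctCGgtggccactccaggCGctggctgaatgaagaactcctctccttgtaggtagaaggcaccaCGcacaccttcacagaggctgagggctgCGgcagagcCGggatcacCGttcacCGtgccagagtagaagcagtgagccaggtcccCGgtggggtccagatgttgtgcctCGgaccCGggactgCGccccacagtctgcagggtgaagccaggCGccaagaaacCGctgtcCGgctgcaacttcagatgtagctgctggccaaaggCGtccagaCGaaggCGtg
Gm16835, promoter, chr14:119098801-119099100: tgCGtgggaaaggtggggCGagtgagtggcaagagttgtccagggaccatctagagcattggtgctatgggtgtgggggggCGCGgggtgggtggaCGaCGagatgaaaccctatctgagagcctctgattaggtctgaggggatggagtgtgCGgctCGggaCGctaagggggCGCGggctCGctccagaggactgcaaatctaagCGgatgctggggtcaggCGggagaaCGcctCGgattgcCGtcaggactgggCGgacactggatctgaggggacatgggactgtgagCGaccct
Trib2, promoter, chr12:15815551-15815850: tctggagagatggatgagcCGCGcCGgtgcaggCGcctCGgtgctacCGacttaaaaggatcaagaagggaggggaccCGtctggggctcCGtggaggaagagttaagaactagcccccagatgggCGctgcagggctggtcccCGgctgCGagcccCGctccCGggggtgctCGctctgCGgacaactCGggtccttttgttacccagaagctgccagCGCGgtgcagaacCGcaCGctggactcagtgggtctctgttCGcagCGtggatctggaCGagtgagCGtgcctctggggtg
In the depleted group the windows held 0 to 5 CpGs, and each is named by the nearest start site, which lay 84856 to 414083 bp away.
Cfap54, intron, chr10:92987101-92987400: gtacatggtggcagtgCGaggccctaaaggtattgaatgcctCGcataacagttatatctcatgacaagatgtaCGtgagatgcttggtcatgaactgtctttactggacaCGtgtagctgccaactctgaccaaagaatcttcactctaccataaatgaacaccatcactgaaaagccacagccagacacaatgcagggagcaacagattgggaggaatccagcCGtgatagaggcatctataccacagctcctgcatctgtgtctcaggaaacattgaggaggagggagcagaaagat
Gm31447, intergenic, chr12:68715226-68715525: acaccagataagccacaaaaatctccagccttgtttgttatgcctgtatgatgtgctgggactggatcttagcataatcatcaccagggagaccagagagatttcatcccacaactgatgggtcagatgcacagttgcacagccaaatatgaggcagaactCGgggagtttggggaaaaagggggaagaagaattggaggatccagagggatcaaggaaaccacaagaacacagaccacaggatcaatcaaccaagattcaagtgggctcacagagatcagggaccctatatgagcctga
Tmem126b, intergenic, chr7:90561001-90561300: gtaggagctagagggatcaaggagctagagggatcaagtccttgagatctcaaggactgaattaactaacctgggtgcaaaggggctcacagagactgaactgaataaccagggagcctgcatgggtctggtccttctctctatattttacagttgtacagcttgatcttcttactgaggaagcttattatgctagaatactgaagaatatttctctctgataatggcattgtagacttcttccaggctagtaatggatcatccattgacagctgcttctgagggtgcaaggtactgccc

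Over all regions the same window held a median of 3 CpGs, against 4 at kept and 2 at depleted regions as defined below. At least 10 CpGs were found in 12.2% of kept windows and in 0.207% of depleted windows, beside 3.17% of all windows. No CpG was found in 4.35% of kept, 16.4% of depleted and 9.57% of all windows.

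The libraries differed in depth and in the spread of their values, which bears on every difference given here. Values were log2 RPM per kb, that is reads scaled to library size and region width, and whole reads could be recovered from them. Total H3K27me3 had 12294689 and 31847414 reads in replicates 1 and 2, K27-K4 had 6741245 and 47903464, and the 9 E14 libraries ranged over the same 6741245 to 47903464. The median region held 14 and 39 reads in the totals and 6 and 29 reads in K27-K4. Fewer than 10 reads stood behind 64.8% of regions in K27-K4 replicate 1 and 21.1% in replicate 2. The regions took up 4.16% and 4.42% of the total H3K27me3 reads, and 6.61% and 13.8% of the K27-K4 reads. Before centring, the SD of log2 values over regions was 0.44 and 0.25 in the totals against 1.19 and 1.87 in K27-K4, so the libraries of the second step were the more spread. Every region held at least 10 reads in total H3K27me3 replicate 2, whose lowest level was -0.19, so the listed regions were all above a floor in that library, and the part of this floor in the differences was not tested. Across the 21527 regions the totals of the replicates had a Pearson r of -0.03 and the K27-K4 libraries one of 0.75. The difference therefore followed the K27-K4 level closely, with r of 0.93 in replicate 1 and 0.99 in replicate 2, and these correlations are descriptions over regions that share libraries and widths. Regions were narrow, with a median width of 750 bp and a range of 300 to 20400 bp, and 5737 of them (26.7%) overlapped an H3K27me3 region of the WT clones. As a check of the label, 6 of 7 ESC marker genes had an H3K4me3 region within 1.5 kb of a start site and 1 of 7, Esrrb, had an H3K27me3 region, against 4 of 7 for either mark among markers of other lineages.

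The replicate pairs ordered the regions alike but gave differences of unlike size. K27-K4 was above the in-line total in both pairs at 8060 regions and below it in both at 7508, while 5959 regions (27.7%) had opposite signs. The difference had an SD of 1.22 over regions in replicate 1 and of 1.92 in replicate 2, with r of 0.70 between them. With limma on the paired design, at a log2 difference above 1 and a Benjamini-Hochberg adjusted p under 0.05, 0 of 21527 regions (0.0%) were called higher in K27-K4 and 0 (0.0%) lower, and the smallest adjusted p was 0.189. At an unadjusted p under 0.05 the fit gave 3410 regions (15.8%) higher and 2104 (9.77%) lower. The median standard error of a difference was 0.61, 1.32 among regions with a difference above 2 and 0.98 among those below -2. Other settings of limma gave other counts, 3465 higher and 1123 lower with a variance model that has no trend and is not robust, 3580 and 164 with voom weights on the recovered reads, and 4152 and 1203 with all 8 E14 ChIP libraries in the fit. In the main fit the spread was almost wholly pooled over regions as a trend, with a median of 21527 degrees of freedom per region. The standard errors therefore say little about how far the 2 replicates differed at a given region, and no more than 2 replicates stand behind any of these tests.

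Regions were therefore described by size, a rule chosen after the fit had called none. A region was kept where the centred log2 difference was above 1 in both pairs, and depleted where it was below -1 in both. By this rule 3883 regions (18%) were kept, 1934 (8.98%) were depleted and 15710 (73.0%) were neither. Within 0.1 of the threshold, 263 regions lay just inside the kept class and 291 just outside it, and for the depleted class these counts were 382 and 200. Kept and depleted are relative to the median region, because centring removes any loss shared by all regions. On values as deposited, without centring, 2732 regions were kept and 4961 depleted. With the libraries also scaled to a common spread, 2259 were kept and 1653 depleted. A further 218 regions were above 1 in replicate 1 and below -1 in replicate 2, and 71 the reverse. Of the regions called by the limma fit with no trend, 3352 of 3465 higher regions (96.7%) were kept and 882 of 1123 lower regions (78.5%) were depleted. These were 86.3% of the kept and 45.6% of the depleted regions, whereas the lower calls with voom weights held 104 depleted regions (5.38% of the class). The fits use the same 4 libraries as the rule and are not independent of it.

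**Figure D1:**
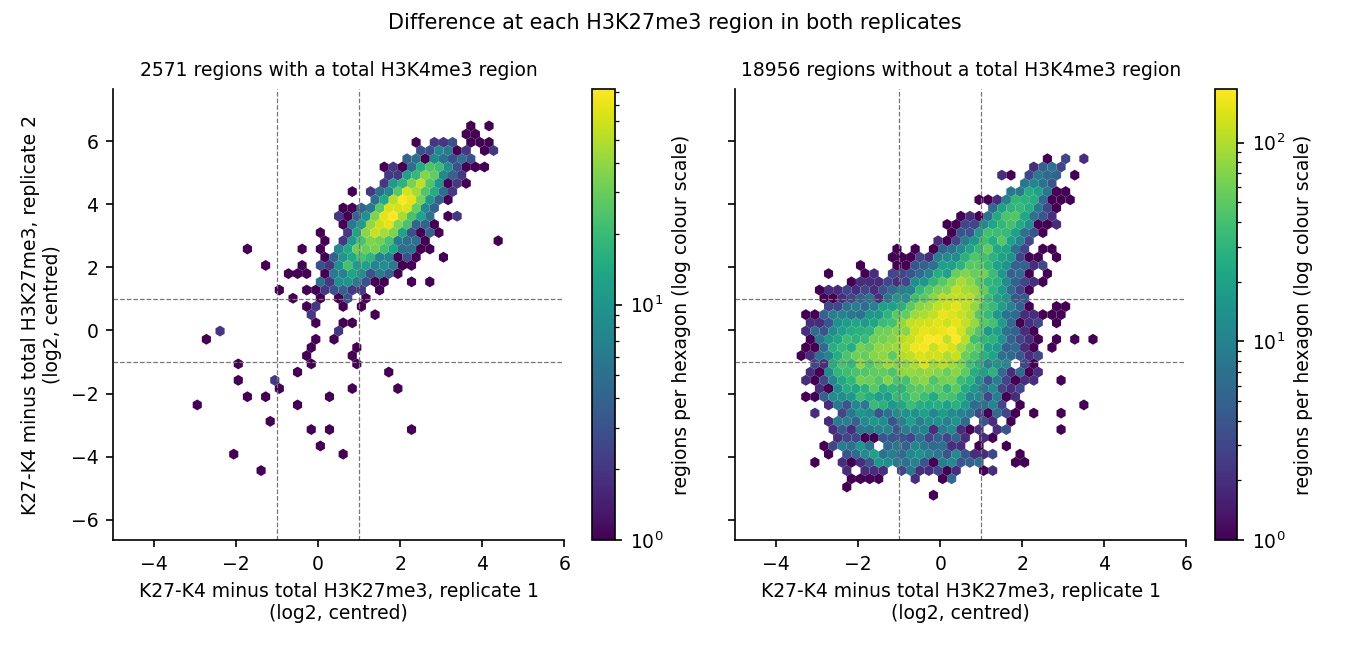
Each hexagon counts regions by their K27-K4 minus total H3K27me3 difference (log2, centred) in replicate 1 on the x axis and replicate 2 on the y axis, for regions with (left) and without (right) an overlapping total H3K4me3 region, with dashed lines at 1 and -1. Of the 2571 regions on the left 2258 lie above 1 in both replicates, and of the 18956 on the right 1625 do, while 1924 lie below -1 in both.

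The classes were set by the difference, so their levels are given as a description, and they stood apart in K27-K4 with like levels in the in-line total. At the 3883 kept regions the median level of total H3K27me3 was 0.65 and 0.69 in replicates 1 and 2, and that of K27-K4 was 2.01 and 3.19. At the 1934 depleted regions total H3K27me3 stood at 0.85 and 0.80, and K27-K4 at -1.17 and -1.85. The depleted group was the higher in the in-line total and the lower after the second step, and the rule favours both, because it subtracts the total from K27-K4. Median differences at kept regions were 1.76 in replicate 1 (interquartile range 1.40 to 2.18) and 3.51 in replicate 2 (2.77 to 4.13). At depleted regions they were -1.67 and -1.65, or -0.45 and -1.65 with fewer than 3 reads entered as 3 reads. Kept regions held 40.6% and 39.6% of the total H3K27me3 reads that fell in regions, and 70.5% and 84.6% of the K27-K4 reads. As a share of the whole library this was 1.69% and 1.75% before and 4.66% and 11.6% after the second step. Depleted regions held 3.95% and 3.57% of the in-region reads of the totals and 0.493% and 0.174% of those of K27-K4.

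Reads behind the classes were uneven. A kept region had a median of 43 and 113 reads in the totals and 64 and 1047 in K27-K4. A depleted region had a median of 10 and 23 reads in the totals and 1 and 5 in K27-K4. In K27-K4 replicate 1, 1933 of the 1934 depleted regions held fewer than 10 reads, 510 had 0 reads in at least 1 K27-K4 library and 18 had 0 in both. Fewer than 3 reads stood behind at least 1 K27-K4 value at 1800 of them, so most depleted sites were below the threshold at counts that leave the size of the loss open. With fewer than 3 reads entered as 3, an alternative chosen after seeing the data, 282 regions met the depleted rule and 3883 the kept rule. Of these 282, 5 overlapped an H3K4me3 region and 4 lay at promoters, and their median was 0.667 CpGs per 100 bp and 750 bp in width. IgG–IgG, with 1 library, had a median of -0.67 (12 reads) at kept, -1.40 (2 reads) at depleted and -1.14 (3 reads) at other regions, so the background also ran higher at kept regions, and its part in the difference was not tested.

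**Figure D2:**
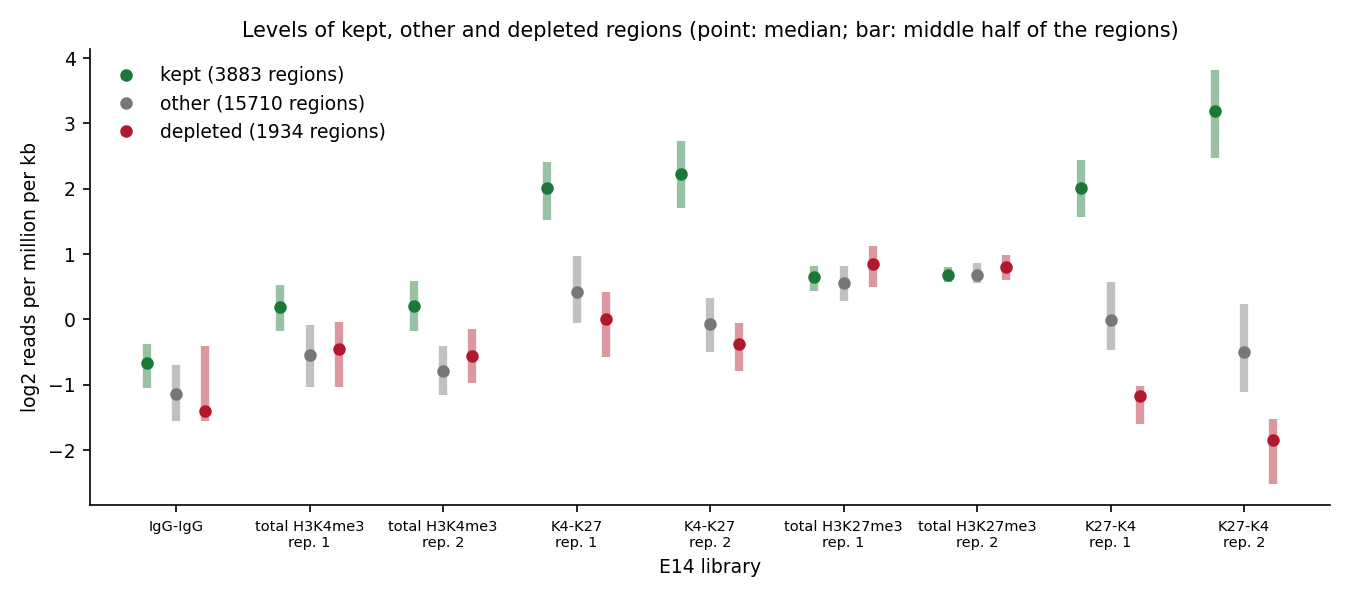
Points are median log2 RPM per kb of kept, other and depleted regions in each of the 9 E14 libraries, before centring, and bars span the interquartile range over regions. The classes have like medians in total H3K27me3, between 0.55 and 0.85, and are far apart in K27-K4, where kept regions stand at 2.01 and 3.19 and depleted ones at -1.17 and -1.85.

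Overlap with a total H3K4me3 region, a feature that the size rule did not use, separated the classes. Of the 2571 H3K27me3 regions that overlapped an H3K4me3 region by at least 1 bp, 2258 (87.8%) were kept and 10 were depleted. Of the 18956 without one, 1625 (8.57%) were kept and 1924 (10.1%) were depleted. The background over all regions was 18% kept and 8.98% depleted. The median difference was 1.83 in replicate 1 and 3.63 in replicate 2 with an H3K4me3 region, and -0.08 and -0.23 without. Where H3K4me3 covered 50% or more of the region, 930 of 1000 regions (93.0%) were kept, with medians of 2.25 and 4.20. Total H3K4me3 itself was at 0.18 and 0.20 at kept regions, -0.45 and -0.57 at depleted regions and -0.54 and -0.80 at the others, so the level of depleted regions was not the lowest of the classes. In number, 1625 of the 3883 kept regions had no H3K4me3 region in the deposited table. As the paper reports noisy in-line totals, a missing region does not show that the mark was absent.

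Position in the genome followed the same order. Of 3679 regions within 1.5 kb of a RefSeq start site, 2464 (67.0%) were kept and 30 depleted, with median differences of 1.51 and 3.14. Of the 17848 regions elsewhere 1419 (7.95%) were kept and 1904 (10.7%) depleted, with medians of -0.13 and -0.29. Regions over exons outside promoters were kept in 373 of 1347 cases (27.7%), those in introns in 302 of 4982 (6.06%) and intergenic ones in 744 of 11519 (6.46%). The features were then combined. Promoters with an H3K4me3 region were kept at 1668 of 1808 regions (92.3%), with 1 depleted, and promoters without one at 796 of 1871 (42.5%). Away from promoters, 590 of 763 regions with an H3K4me3 region (77.3%) were kept, against 829 of 17085 (4.85%) with neither feature. That last group held 1895 of the 1934 depleted regions.

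CpG frequency and width rose with the share of kept regions. Kept regions had a median of 2.00 CpGs per 100 bp (interquartile range 1.44 to 2.63) and a median width of 2250 bp (1350 to 3450). Depleted regions had 0.667 CpGs per 100 bp (0.333 to 1.00) and a width of 450 bp (300 to 600). Below 0.5 CpG per 100 bp 1.07% of 3734 regions were kept and 18.6% were depleted, whereas at 4 or more 94.1% of 185 regions were kept and 0 were depleted. The order held in regions with no H3K4me3 region, where the kept share went from 0.757% below 0.5 CpG per 100 bp through 37.2% at 2 to 3 to 83.3% of 42 regions at 4 or more. By width, 1.93% of regions of 300 bp were kept and 22.2% depleted, and over 3000 bp 68.7% were kept and 0 depleted. Among regions with an H3K4me3 region the kept share varied less with width, from 59.6% of 57 regions at 300 bp to 92.3% of 810 regions over 3000 bp. Across regions the mean difference had r of 0.63 with CpG frequency and 0.64 with log2 width, and narrow regions also carry few reads, a part in the result that was not tested. Masked repeats took a similar share of the classes, with medians of 12.4% of bases at kept, 13.3% at depleted and 14% at other regions.

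**Figure D3:**
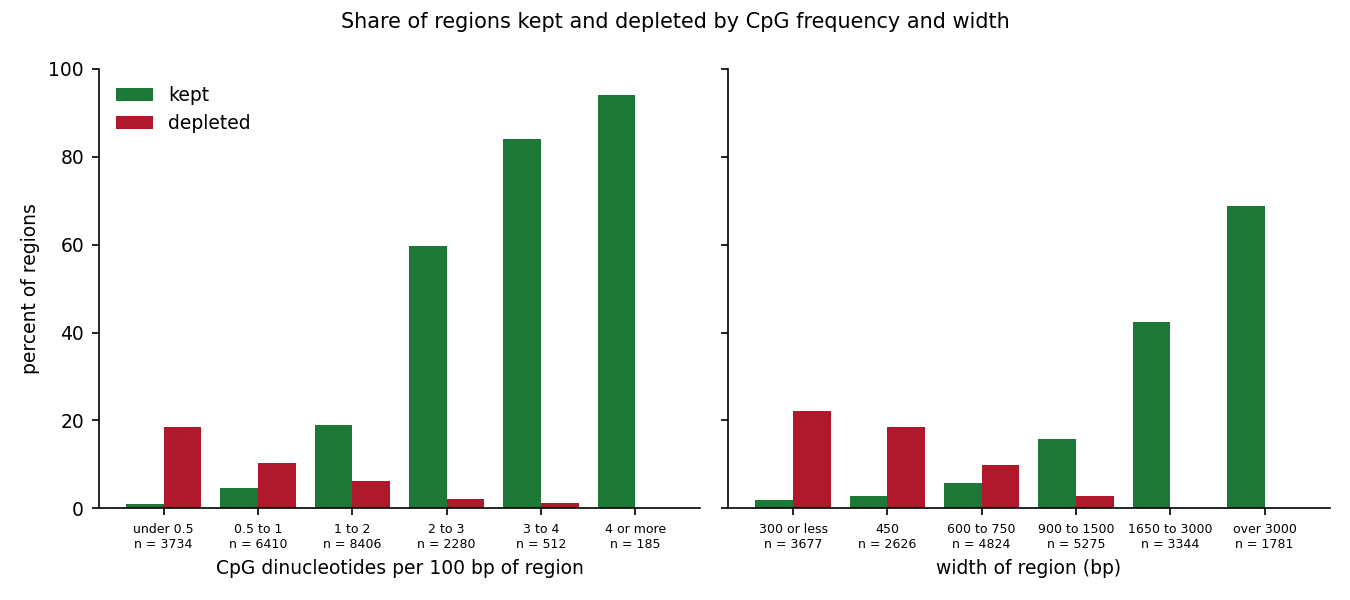
Bars give the percent of regions that were kept (green) and depleted (red) in bins of CpG dinucleotides per 100 bp (left) and of region width in bp (right), with the number of regions under each bin. The kept share climbs from 1.07% to 94.1% with CpG frequency and from 1.93% to 68.7% with width, while the depleted share falls from 18.6% and 22.2% to 0.

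The level of total H3K27me3 did not order the kept class in this way. From the lowest to the highest quartile of the mean total level 11.5%, 19.8%, 26.2% and 14.6% of regions were kept, and 4.37%, 5.04%, 7.67% and 18.9% were depleted. The total is the subtracted term of the difference, so a higher total moves a region towards depleted by the rule itself. The part of this in the shares was not tested. Regions of the highest quartile had a median of 10 and 22 reads in the totals, fewer than the 14 and 50 of the lowest. With at least 10 reads in both totals 23.4% of 15964 regions were kept and 6.56% depleted, and with fewer reads 2.61% of 5563 were kept and 15.9% depleted. On the autosomes the kept share ran from 14.5% to 23.2% and the depleted share from 6.30% to 11.5%. On the X chromosome, which had 171 regions, 9.94% were kept and 2.92% depleted.

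The largest kept differences all lay at promoters that overlapped an H3K4me3 region. At the promoter of D030025P21Rik (chr12:84875551-84876450) total H3K27me3 was 0.70 and 0.80 and K27-K4 was 4.38 and 6.18, from 18 and 50 reads in the totals and 126 and 3129 in K27-K4. Both K27-K4 libraries were above both totals, as at 4753 of all regions (22.1%), while both were below them at 11499 (53.4%), and the mean difference was 5.24 (SE 2.71, limma adjusted p = 0.199). The reverse reChIP, K4-K27, stood at 4.13 and 5.05 there and IgG–IgG at -0.67. At Adamts1 (chr16:85801951-85802700), which encodes a secreted metalloproteinase, the totals were 0.80 and 0.59 and K27-K4 was 4.07 and 6.13, a mean difference of 5.12 (SE 2.55, limma adjusted p = 0.193). Trib2 (chr12:15815401-15816000), a pseudokinase gene, went from 0.82 and 0.60 to 4.25 and 5.80. Ovol2 (chr2:144329851-144331050), which encodes a zinc finger factor of epithelial cells, went from 0.36 and 0.60 to 3.95 and 5.63. The groups did not overlap at these genes either, which the choice of the largest differences had fixed. Cacnb4 (chr2:52674751-52675950), which encodes a calcium channel subunit, had a difference of 4.31 and 5.72 in replicates 1 and 2 and the smaller SE of 2.08 (limma unadjusted p = 0.0157, adjusted p = 0.189). Gm16835, Cep85l, Cldn23, Ppm1e and Zbtb10 complete the 10, with mean differences of 4.82 to 5.10.

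The 9 largest depleted differences reported here lay outside promoters, 10401 to 414083 bp from the nearest start site, and their K27-K4 libraries were nearly empty. In an intron of Cfap54 (chr10:92986951-92987550), a gene of the ciliary axoneme, total H3K27me3 was 1.29 and 0.20 from 18 and 22 reads, and K27-K4 had 0 reads in both replicates. Against a floor of 3 reads per library K27-K4 was lower by at least 1.30 and 2.45 on the log2 scale. An intergenic region at chr12:68715001-68715750, with Gm31447 as nearest start site, had 12 and 40 reads in the totals and 1 and 1 in K27-K4, and its differences were -2.30 (95% counting interval -7.72 to 0.46, exact binomial) and -4.90 (-10.2 to -2.34), so only that of replicate 2 lay below 0 beyond counting error. A region at chr7:90560851-90561450, 84856 bp from Tmem126b, a gene of mitochondrial complex I assembly, had 10 and 30 reads in the totals and 0 and 1 in K27-K4. The 9 depleted regions plotted had 0 to 2 reads in each K27-K4 library, no H3K4me3 region and no WT clone H3K27me3 region. Depleted regions with more reads are given next. At chr14:67121701-67123650, 49230 bp from Ppp2r2a, a phosphatase subunit gene, there were 35 and 77 reads in the totals and 6 and 27 in K27-K4, with differences of -1.26 and -1.09 (limma adjusted p = 0.340). At chr6:93198151-93199650, 254617 bp from the metalloproteinase gene Adamts9, there were 29 and 64 reads and then 4 and 20, with differences of -1.57 and -1.25, and this region was also an H3K27me3 region of the WT clones. At chr5:43966201-43967700, 14099 bp from Fgfbp1, a carrier protein of growth factors, there were 26 and 65 reads and then 4 and 17, with differences of -1.42 and -1.51.

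**Figure D4:**
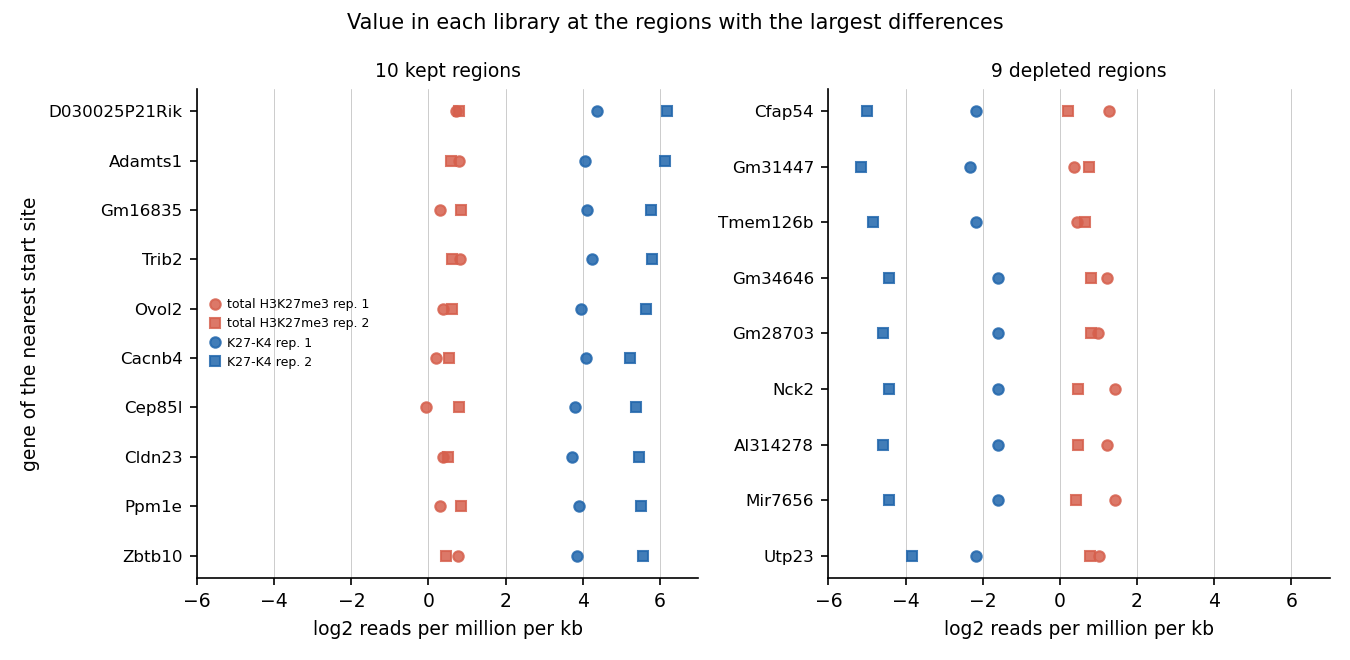
Log2 RPM (reads scaled to library size) per kb in each of the 4 libraries, before centring, at 10 kept (left) and 9 depleted (right) regions among those with the largest mean difference, with circles for replicate 1, squares for replicate 2, red for total H3K27me3 and blue for K27-K4. On the left every blue point lies above every red point, and on the right every blue point lies below them, where the lowest values stand for 0 to 2 reads.

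Depleted regions at promoters were few, 30 of 3679, and rested on low counts. At Gpr65 (chr12:98269651-98270850), which encodes a proton-sensing receptor, there were 18 and 50 reads in the totals and 2 and 17 in K27-K4, with differences of -1.89 (95% counting interval -5.04 to 0.18) and -1.13. At Mlip (chr9:77347201-77347950), a gene of a lamin-interacting muscle protein, there were 18 and 27 reads and then 0 and 3, so K27-K4 was lower by at least 1.30 in replicate 1, with 0 reads taken as 3, and the difference was -2.75 in replicate 2 (95% counting interval -5.11 to -1.05). The WT clones had differences of -2.46 and 1.20 at Mlip and 0.37 and 0.29 at Gpr65, so neither promoter was below the total in both clones. At 4 regions the IgG–IgG level was above 1, next to Cdk5rap2, Dpy19l1, Mir101c and Fam172a, and each overlapped an H3K4me3 region over at least 50% of its width. Near Cdk5rap2 (chr4:70377751-70378650) IgG–IgG was 2.99, the totals were 3.91 and 4.43, while K27-K4 stood at 3.81 and 0.27. In all 4 the difference was near 0 in replicate 1, from -0.09 to 0.51, and between -3.15 and -3.88 in replicate 2, so the replicates went apart where the control was high. Another region near Mir101c (chr9:3018001-3019800), with IgG–IgG at 0.71, was depleted and had the most reads of that class, 148 and 508 in the totals and 25 and 18 in K27-K4, with differences of -1.28 and -4.39.

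Of the 1625 regions kept without an H3K4me3 region, 796 lay at promoters. At Tmem163 (chr1:127677751-127678800), which encodes a zinc transporter, total H3K27me3 was 0.63 and 0.89 and K27-K4 3.81 and 5.37. At Gpr6 (chr10:41069401-41071650), an orphan receptor gene, the values were 0.30 and 0.58 against 3.41 and 5.05. Smad9 (chr3:54753901-54756150), which encodes a signal transducer of BMP receptors, had totals of 0.70 and 0.31 and K27-K4 of 3.24 and 4.67 (limma adjusted p = 0.189). Total H3K4me3 at these 3 promoters was 0.45 to 1.06, above the kept median of 0.18 and 0.20, although the E14 H3K4me3 table has no region there. Among intergenic regions the largest kept difference was 8531 bp from Irx2, a homeobox gene (chr13:72637351-72640050), where 0.68 and 0.39 in the totals compared with 2.83 and 4.22 in K27-K4. Next came a region 2381 bp from the homeobox gene Nkx3-2 (chr5:41766601-41768100), with 0.84 and 0.53 against 2.91 and 4.19.

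Gene lists drawn from textbook families were read against the promoter background of 67.0% kept, and limma called 0 regions of each. Among developmental transcription factors most promoter regions were kept. Hox cluster genes, which set position along the body axis, had 39 of 43 promoter regions kept and 0 depleted, with median differences of 1.75 and 3.39. The Pax, Nkx, Dlx, Tlx, Irx and related homeobox genes had 33 of 37 kept, LIM homeobox and Pou4 genes 14 of 16, Fox, Sox, Gata and T-box genes 31 of 32, and proneural bHLH genes 22 of 24. Genes with a region but none kept were Hoxd13, Hoxd3, Hoxd8, Dlx6, Pax5, Isl1, Tbx19 and Atoh7. At Pax2 (chr19:44747251-44754900), a kidney and eye regulator, total H3K27me3 was 0.68 and 0.61 and K27-K4 was 2.14 and 3.64. At Lhx2 (chr2:38343151-38356350), a forebrain regulator, the totals were 0.84 and 0.72 and K27-K4 was 2.46 and 3.70. At Hand1 (chr11:57826051-57838650), a factor of heart and trophoblast, they were 1.09 and 0.86 against 2.50 and 3.73, and the groups did not overlap at any of these 3 genes, as at 2774 of the 3679 promoter regions (75.4%).

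Regions were also counted over the whole Hox clusters. Kept regions were 13 of 16 in Hoxa, 17 of 22 in Hoxb, 19 of 24 in Hoxc and 7 of 15 in Hoxd, and 0 were depleted in any cluster, beside 18% kept and 8.98% depleted over all regions. The clusters are rich in promoters, with 43 regions at Hox promoters, and over all promoter regions the shares were 67.0% and 0.815%. Hoxd had the lowest medians, 0.88 and 1.95, beside 1.78 and 3.40 in Hoxa. Within Hoxb the difference ran from -0.94 to 2.43 in replicate 1 and from 0.17 to 4.53 in replicate 2. A wide region over Hoxb3 (chr11:96321751-96340800), 19050 bp long and without an H3K4me3 region, had 0.98 and 1.14 in the totals and 1.86 and 2.57 in K27-K4. Its neighbour over Hoxb4 and Hoxb5 (chr11:96303451-96318750), with an H3K4me3 region, had 1.07 and 1.17 in the totals and 2.27 and 3.31 in K27-K4. Differences at the pair were 1.30 and 2.45 against 1.62 and 3.15, and they were not tested against each other. With the libraries scaled to a common spread the mean difference fell from 1.87 to 0.14 at Hoxb3 and from 2.38 to 0.32 at Hoxb4.

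Signalling genes were counted in the same way. Wnt ligands, Frizzled receptors and Sfrp inhibitors had 24 of 28 promoter regions kept, BMP, GDF and Nodal ligands 10 of 12, and axon guidance ligands and receptors 22 of 26. At Gdf6 (chr4:9844351-9853200), a ligand of joint formation, total H3K27me3 was 0.69 and 0.72 and K27-K4 was 1.95 and 3.13. At the axon guidance receptor gene Epha8 (chr4:136949551-136956600), without an H3K4me3 region, the values were 0.42 and 0.68 against 1.04 and 2.63, a difference of 1.04 in replicate 1 that was just inside the rule. Genes of neuronal function had 47 of 64 regions kept for potassium channels and 20 of 28, with 1 depleted at Gabrr1, for glutamate, GABA and glycine receptors. Clustered protocadherins, adhesion molecules with many alternative promoters, had 35 of 42 kept although 10 of the 42 overlapped an H3K4me3 region.

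Lists of other chromatin contexts differed in their counts. Olfactory and vomeronasal receptor genes, which lie in CpG-poor clusters, had 3 of 22 promoter regions kept and 2 depleted, at Olfr694 and Olfr1367, with medians of 0.05 and -0.54. At Olfr1367 (chr13:21347551-21348150) there were 15 and 30 reads in the totals and 3 and 5 in K27-K4, with differences of -1.04 (95% counting interval -3.47 to 0.79) and -2.16. At Olfr95 (chr17:37210651-37214550), by contrast, the totals were 0.72 and 0.60 and K27-K4 was 2.04 and 3.32, so the receptor family was not uniform. Keratins, the filament genes of epithelia, had 2 of 11 kept with medians of 0.17 and 1.52, and the germline genes, many of which are silenced by DNA methylation in somatic cells, had 9 of 21 kept with medians of 0.73 and 1.95. Imprinted genes had 17 of 21 kept, among them Dlk1, a Notch-related ligand, and Cdkn1c, a growth inhibitor, and no kept region at Peg3, Usp29 and Zim1. Polycomb component genes had 7 of 9 kept. Cbx8 (chr11:119033101-119040750), a chromodomain reader of H3K27me3, was itself at 0.92 and 0.78 in the totals and 3.00 and 4.37 in K27-K4. Of 21 pluripotency genes only Esrrb, a nuclear receptor active in ESCs, had a promoter region (chr12:86417851-86423250), with 0.81 and 0.66 in the totals and 2.54 and 4.04 in K27-K4, and of 80 genes of cytosolic ribosomal proteins none had one.

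**Figure D5:**
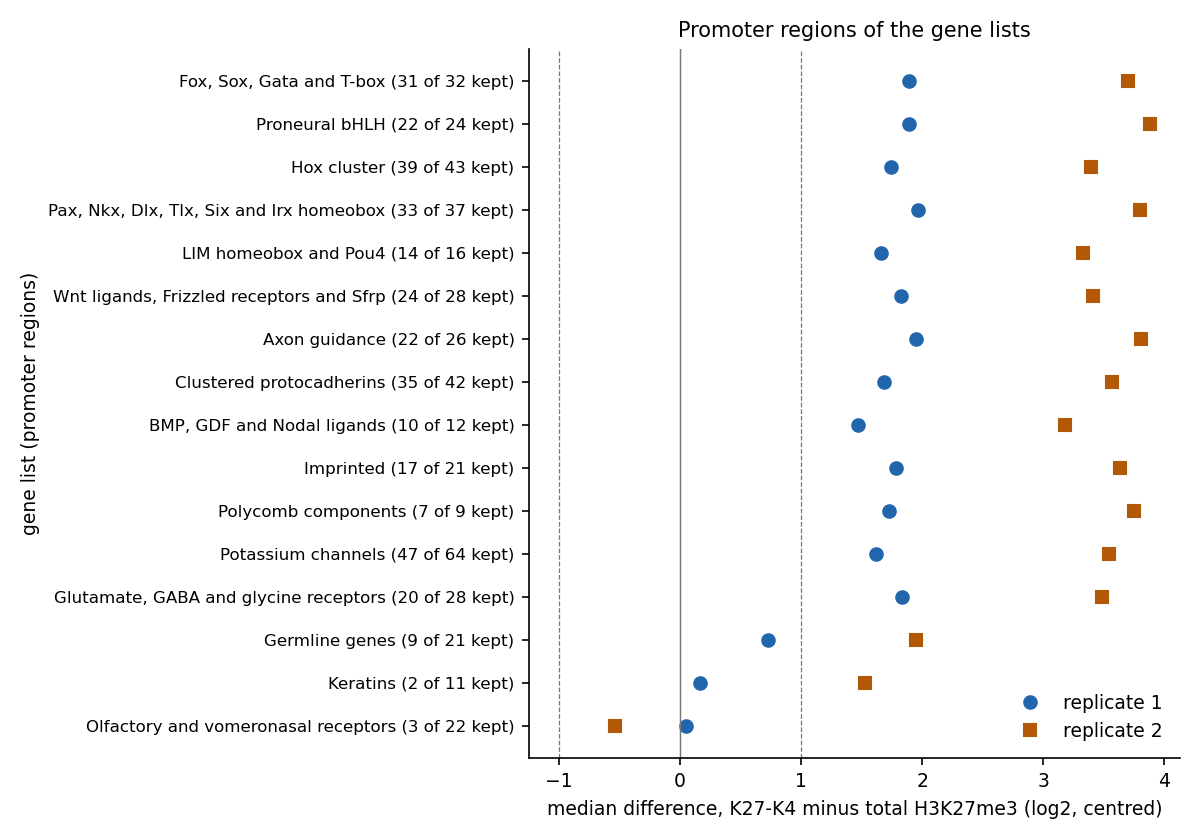
Median difference between K27-K4 and total H3K27me3 (log2, centred) over the promoter regions of each gene list, in replicate 1 (circles) and replicate 2 (squares), with lines at -1, 0 and 1 and the count of kept regions beside each name. Developmental and signalling lists lie above 1 in both replicates, and the olfactory and vomeronasal receptors lie at 0.05 and -0.54.

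Of 15 loci that the study assayed by qPCR and that were looked up here by gene symbol, 4 had a region within 1.5 kb of the start site, and the primer sites K27me_R1 and Pfsd4a were not analysed here. Tlx1 (chr19:45147601-45150900), a homeobox gene taken there as bivalent, had total H3K27me3 of 0.92 and 0.68 and K27-K4 of 2.11 and 3.29. Csf1 (chr3:107760451-107761650), which encodes a macrophage growth factor, went from 0.70 and 0.99 to 1.68 and 3.54, and Colgalt2 (chr1:152400151-152401800), a collagen galactosyltransferase gene without an H3K4me3 region, from 0.83 and 0.82 to 2.65 and 4.47. These 3 were kept, with differences of 1.40 to 2.25 in replicate 1 and 3.57 to 4.66 in replicate 2. Gm6116 (chr5:74947201-74950350), taken as marked by H3K27me3 alone, was neither kept nor depleted, with 0.68 and 0.97 in the totals, 1.02 and 1.39 in K27-K4 and differences of 0.76 and 1.43. A narrower region of Gm6116 (chr5:74950501-74952900) was also neither, with differences of 0.35 and 1.40. Over the regions shared with the WT clones, whose median difference is higher, the centred difference of the wider one was -0.26.

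The reverse reChIP, in which H3K4me3 was precipitated first, was not used to choose the classes. K4-K27 stood at a median of 2.01 and 2.23 at kept regions, 0.01 and -0.37 at depleted regions and 0.42 and -0.07 at the others. Relative to total H3K4me3, K4-K27 was above 1 in both replicates at 1275 kept regions (32.8%), beside 8.23% of all regions, and below -1 at 1 of them. At depleted regions it was above 1 in both at 6 (0.310%) and below -1 in both at 267 of 1934, beside 4.18% of all regions below -1. Depleted regions held a median of 5 and 9 reads in total H3K4me3 and 4 and 11 in K4-K27, and the part of low counts was not tested. Median differences between K4-K27 and total H3K4me3 were 0.81 and 1.41 at kept and -0.60 and -0.57 at depleted regions. Both orders of immunoprecipitation thus put the class medians in the same sequence.

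The WT clones gave libraries that had no part in the choice of the classes. At the same regions K27-K4 was above the total by more than 1 in both clones at 1786 kept regions (46.0%), beside 9.36% of all regions, and below it by more than 1 at 8. The kept regions had a higher K27-K4 than total in both clones at 3438 of 3883 (88.5%; 34.2% of all regions), with medians of 1.24 in clone 57 and 1.03 in clone 58. Fewer depleted regions met the rule in the clones. Of the 1934 depleted regions, 230 (11.9%) were below -1 in both clones, beside 4.96% of all regions. Below 0 in both were 732 (37.8%, beside 25.3% of all), and the median differences were -0.42 and -0.39. Depleted regions held a median of 8 and 7 reads in the clone totals and 4 and 6 in clone K27-K4. Over all regions these were 19 and 14 in the totals and 14 and 15 in K27-K4, and the part of low counts was not tested. Total H3K27me3 of the clones was -0.05 and -0.06 at depleted regions against 1.5 and 0.91 at kept ones, and 45 of the depleted regions (2.33%) overlapped an H3K27me3 region of the clones against 2584 of the kept (66.5%). The in-line total of E14 had shown no such gap between the classes. In the clones' own table of 21436 regions, 1584 of the 2271 that overlapped a kept E14 region (69.7%) were kept by the same rule and 1 was depleted, beside 16.0% and 6.79% of that table. Of the 47 that overlapped a depleted E14 region 0 were kept and 9 (19.1%) were depleted.

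The E14 regions that were also H3K27me3 regions of the clones are a subset of the regions counted above, with the same libraries and classes. With an H3K4me3 region 1520 of 1666 (91.2%) were kept and 0 depleted, and without one 1064 of 4071 (26.1%) were kept and 45 depleted. These counts use the centring over all regions, and when the libraries were centred on these 5737 regions instead, 1104 of them were kept and 729 depleted. Among those absent from the clones 738 of 905 (81.5%) with an H3K4me3 region were kept. With neither mark's region 561 of 14885 (3.77%) were kept and 1879 (12.6%) depleted. Whether depleted sites are H3K27me3 sites that lack H3K4me3 or sites where the in-line total was high in E14 alone was not tested.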

How the data were processed

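The 4 E14 libraries of K27-K4 and total H3K27me3 were compared over all 21527 regions of the E14 H3K27me3 table. The authors deposited log2 RPM per kb of region, quantified in SeqMonk from alignments to mm10 with duplicates kept and reads extended, and the submitters' processing notes name Trim Galore 0.6.6, BWA 0.7.13, SAMtools 1.9 and Picard 2.6.0. The study's methods describe EPIC2 peak calls per replicate against IgG–IgG, a filter and an intersection of replicates, but which step gave the regions of this table, whose widths are multiples of 150 bp, is not given in the sources used here. Whole reads were recovered within 0.02 for 100% of values, with 0 reads entered as 0.9, and 8 columns of no sample were not used.

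Libraries were centred on their medians. The design was fitted with limma 3.58.1 (R 4.3.3; lmFit, eBayes with trend and robust estimation) with replicate as a block, because in-line total and reChIP of a replicate come from 1 first immunoprecipitation. Their deviations had a correlation of -0.048. Calls needed an absolute log2 difference over 1 at a 0.05 limit on Benjamini-Hochberg adjusted p. The script was tested on simulated data with the same spread in every region. The spread of the real data differs between regions, so this does not show how the fit behaves on them. Overlaps needed 1 bp, promoters lay within 1.5 kb of any of 31647 RefSeq start sites, and sequences came from the GRCm38.p6 genome. Python 3.11.15, numpy 2.4.6, pandas 2.3.3 and matplotlib 3.10.9 were used. Intervals in reads and floors cover counting error only.

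The members, gene lists and comparisons were chosen with earlier results of these data known. The naming rule took the 10 regions of largest difference per direction among limma calls, the loci assayed in the study, and the 2 promoter regions per list with the most total H3K27me3 reads. Because limma called none, the first part was applied to the size classes, and the other groups of regions named were chosen after their values were seen. Of the 10 largest depleted regions that the rule takes, 1 is not reported here.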

Additional observations from a re-analysis of the deposited data

How the results depend on the processing

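The limma counts depended on the variance model and the scaling. Calls higher and lower in K27-K4 were 35 and 819 on values as deposited, 16 higher with libraries scaled to a common spread, 6 and 340 with at least 10 reads in both totals, 3465 and 1123 with the plain variance model, 3580 and 164 with voom weights, 4152 and 1203 with all 8 E14 libraries, and 30 and 113 within the regions of the WT clones, a setting added after seeing the data. Leaving out 1 library, in fits with no replicate block where the lone library of an arm is assumed to vary like the 2 of the other, gave 0 to 6088 higher and 0 to 3621 lower calls. Without K27-K4 replicate 1 these were 6088 and 3621, without K27-K4 replicate 2 they were 3778 and 2374, and without either total 0. With no replicate block, against the pairing, 0 regions were called higher and 0 lower, and the block changed no other call.

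The counts by size, whose alternatives were all added after seeing the data, were 2259 kept with a common spread, 1353 kept and 192 depleted at a difference of 2, 1104 and 729 in regions of the WT clones with the centring on these, 282 depleted with fewer than 3 reads entered as 3, 6207 kept in pair 2 alone, 4961 depleted on values as deposited, and 4173 and 4961 depleted in pairs 1 and 2 alone. The median difference of regions without an H3K4me3 region was -0.22, against -0.94 as deposited and -0.077 in pair 1, and that of regions outside promoters was -0.27, against -0.98 and -0.13. Medians of regions with an H3K4me3 region and of promoters kept their direction with no block, as deposited, with at least 10 reads, in each pair alone and with 50% coverage or 5 kb promoters. With promoters of 5 kb either side, 43.9% of promoter regions were kept in place of 67.0%, and the kept share went from 90.7% to 80.0% for Hox genes, 89.2% to 75.9% for other homeobox genes, 87.5% to 72.4% for LIM homeobox and Pou4, 96.9% to 67.4% for Fox, Sox, Gata and T-box, 83.3% to 59.1% for BMP, GDF and Nodal, 83.3% to 62.7% for protocadherins, 81.0% to 60.6% for imprinted, 77.8% to 56.2% for Polycomb, 42.9% to 31.4% for germline and 18.2% to 22.2% for keratin genes, 84.6% to 48.3% for axon guidance, 91.7% to 56.9% for proneural bHLH, 85.7% to 56.9% for Wnt and Frizzled genes, 73.4% to 55.2% for potassium channels, 71.4% to 54.3% for the glutamate, GABA and glycine receptors, 13.6% to 7.69% for olfactory receptors and 100% to 33.3% for pluripotency genes, the last from 1 and 3 regions.

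Of 83 named regions, 7 changed sign, and the cause was not tested. Olfr1339 (-0.01) was 0.17 centred on regions without H3K4me3, 0.30 scaled, 0.27 and 0.080 without K27-K4 replicate 1 and total replicate 2, and 0.18 in pair 2. Krt13 (0.06) was -0.66 as deposited, -0.36 without the lowest quartile, -0.20 with at least 10 reads, -0.087 with voom, -0.20 without K27-K4 replicate 2 and -0.22 in pair 1. Tuba3a (-0.04) was 0.15 and 0.18 under those centring and scaling settings, 0.56 without K27-K4 replicate 1 and 0.56 in pair 2. Gm6116 (1.09) was -0.26 in the regions of the WT clones. Without K27-K4 replicate 2 and in pair 1, Cdk5rap2 was 0.10 and 0.32, Dpy19l1 0.45 and 0.51, and Kcnh5 0.70 and 0.74.

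At depleted regions the K27-K4 medians were 1 and 5 reads, which limits how well their differences are known.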
